A study of Mus musculus with 12 samples.

Results

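Respiratory complexes II to V were followed through 42 nuclear genes that encode their subunits. They are 4 genes of complex II, 9 of complex III, 14 of complex IV and 14 of complex V, together with Cycs, the cytochrome c gene. Members were taken by symbol from probesets to which the platform annotation gives exactly 1 gene, and all 42 were measured, among 20352 genes in the table. They rested on 225 probesets, from 1 to 17 per gene. Uqcrb, Cox7c and Atp5j had a single probeset, and 24 further probesets that carry a member's symbol together with another gene's were not used. Hearts were from C57BL/6J mice aged 12 weeks, sampled 2 weeks after surgery. The tissue was, in 6 mice, the border zone, the heart muscle beside a myocardial infarct, and, in 6 sham-operated mice, the matching site. The 6 samples of a condition are described as biological replicates. Every signal is on a log2 scale, so that -1 stands for a signal 50% lower.

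The respiratory chain, in the inner mitochondrial membrane, passes electrons from food-derived carriers to oxygen. Complex II (succinate dehydrogenase) takes electrons from the TCA cycle, complex III hands them to cytochrome c, and complex IV (cytochrome c oxidase) reduces oxygen. Complex V, the ATP synthase, uses the proton gradient built by complexes I, III and IV to make ATP. Heart muscle, which beats without rest, is packed with mitochondria, and several complex IV subunits have forms made mainly in muscle. A few core subunits of complexes III, IV and V are encoded by mitochondrial DNA and the others by nuclear genes, while all 4 subunits of complex II are nuclear.

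The respiratory chain genes were lower in infarcted border zone as a modest, widely shared shift. Of the 42 members, 27 fell and none rose (limma, adjusted p under 0.05 with Benjamini-Hochberg adjustment over all genes). Over all genes 10.2% were called lower by the same rule and 10.1% higher. The median change of the members was -0.26, a signal 16.5% lower, against -0.039 over all genes. Changes ran from -0.49 (Atp5e) to 0.076 (Cox8a), and 40 of 42 were negative. In 38 members no infarcted array reached the sham mean. For this count and that of negative changes the share over all genes was not computed. In 27 members every infarcted array lay below every sham array, against 5.29% of all genes (5.97% were apart the other way). The sets of 27 differ in part, since 3 genes that did not pass also had groups apart. Infarcted arrays varied more, with a median SD over members of 0.10 against 0.056 in sham arrays (n = 6 each).

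**Figure D1:**
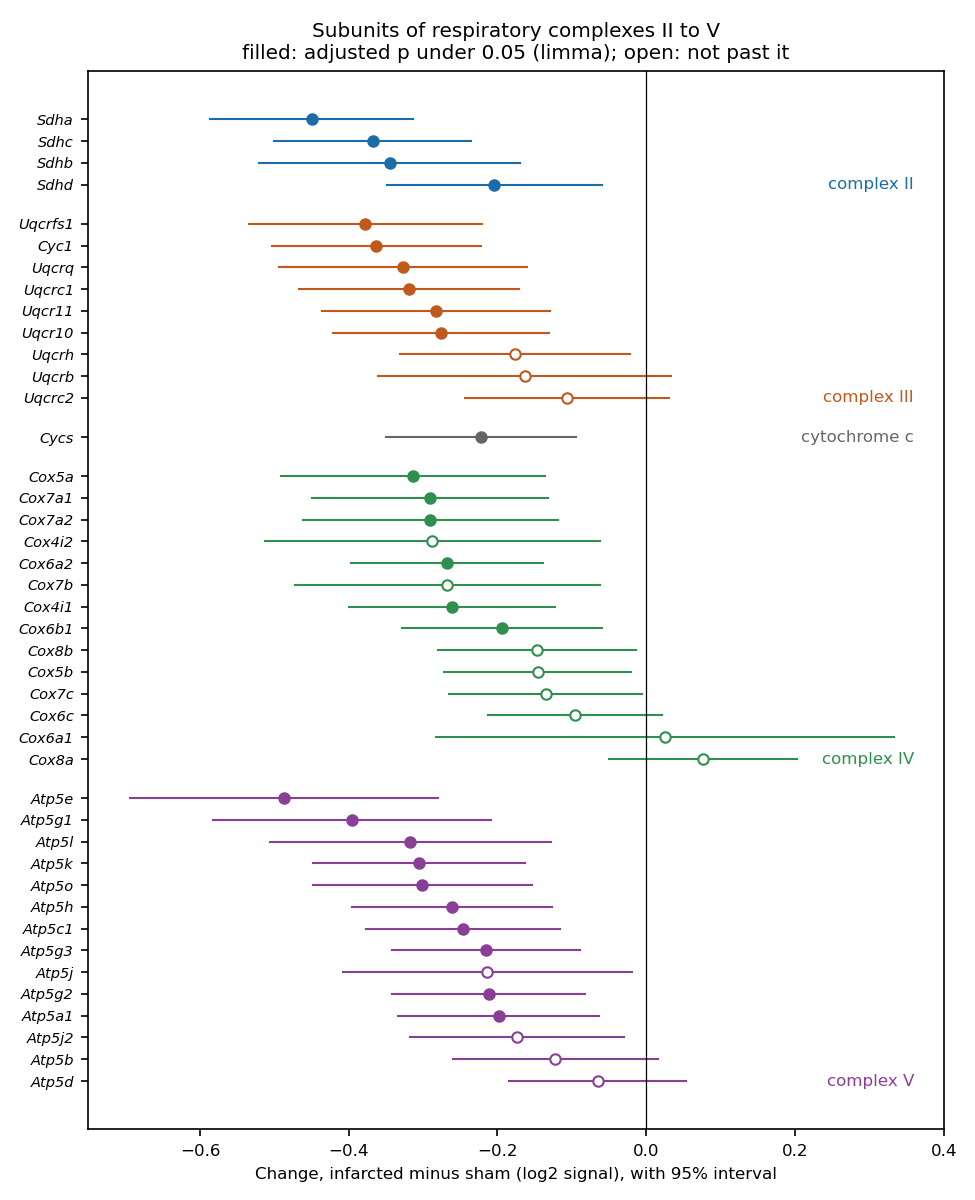
Change of each of the 42 subunit genes (infarcted minus sham, log2 signal, points with 95% intervals from limma), grouped by complex on the vertical axis. Filled points mark the 27 genes past the adjusted threshold, all of them lower, and the 2 points right of 0 are Cox6a1 and Cox8a.

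In bulk tissue, fewer cardiomyocytes in the sample and less of these RNAs per cell cannot be told apart. Cardiomyocyte markers were present at a high level, with a median sham signal of 13.20, and 0 of 18 were called in either direction in limma, with 0.16 and -0.20 as the extremes and a median of -0.047. Unadjusted p in limma was under 0.05 for Myh6, Atp2a2, Tnni3, Ryr2 and Myl3, all lower (-0.20 to -0.13), and for Des, higher (0.16). Myh6, a cardiac myosin, was called lower without sham replicate 3. The mean level of these markers lay between 12.99 and 13.05 in sham arrays and between 12.92 and 13.03 in infarcted arrays. With each array centred on these markers, 21 of the 27 members still passed, against 7.33% of all genes called lower and 12.0% higher, and the members' median change was -0.21. Of the 18 markers, 10 had a sham mean of 13 or more, near the top of the signal range, and the part of that limit in their values was not tested. Fibroblast and macrophage markers rose in 11 of 12 and 13 of 14 genes, with medians of 1.17 and 0.76. Their mean levels did not overlap between groups (fibroblast 9.0 to 9.32 against 10.46 to 10.85, macrophage 7.56 to 7.86 against 8.35 to 8.80). Smooth muscle and pericyte markers rose in 6 of 12 genes and fell in 1, and none of 12 endothelial markers was called (Cdh5 rose without sham replicate 5, and Cdh5 and Pecam1 without infarcted replicate 2). Of 8 atrial markers 2 rose and 2 fell, of 10 skeletal muscle markers 1 rose and 1 fell, and of 10 adipocyte markers none rose and 1 fell. The skeletal muscle marker that rose was Acta1 (1.53) and the one that fell Ckm (-0.32). Both were already high in sham hearts (means 10.90 and 12.20, against a list median of 5.47) and do not mark skeletal muscle alone. Among the atrial markers Nppa (2.04) and Dkk3 (1.59) rose, and Stard10 (-0.85) and Tbx5 (-0.68) fell. Their sham means were 11.43, 6.10, 9.36 and 9.47 in that order, against a list median of 7.11. Ckm lost its call in 8 of 12 refits that each left out 1 array. The part of these cell types in the fall of the members was not tested.

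Within the infarcted group the members and these markers differed from array to array. The mean deviation of the 42 members from the sham mean was -0.17, -0.16, -0.33, -0.17, -0.34 and -0.26 in infarcted replicates 1 to 6. It stayed between -0.017 and 0.017 in sham arrays, so every infarcted array stood apart. Replicates 3, 5 and 6 were the lowest. The fibroblast markers' mean deviation was 1.34, 1.31, 1.67, 1.28, 1.42 and 1.46 in the same order, and that of macrophage markers 0.70, 0.60, 1.05, 0.77, 0.93 and 0.88. Replicate 4 had the highest atrial marker deviation (1.34), and replicate 5 the highest of adipocyte (1.42) and skeletal muscle markers (0.97). Adipoq, an adipocyte hormone, reached 6.59 in replicate 5 from a sham mean of 3.63. Ucp1, the marker of brown fat, was dim, with a sham mean of 4.78. Its highest infarcted value, 4.77, was also in replicate 5. Cidea, alone among the adipocyte markers, had its highest infarcted value elsewhere, in replicate 2 (8.39, against a sham mean of 8.12). The kind of fat was not tested. Of the 27 members called, 21 were also called with replicates 4 and 5 both left out, where 7.15% of all genes were called lower and 8.19% higher.

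**Figure D2:**
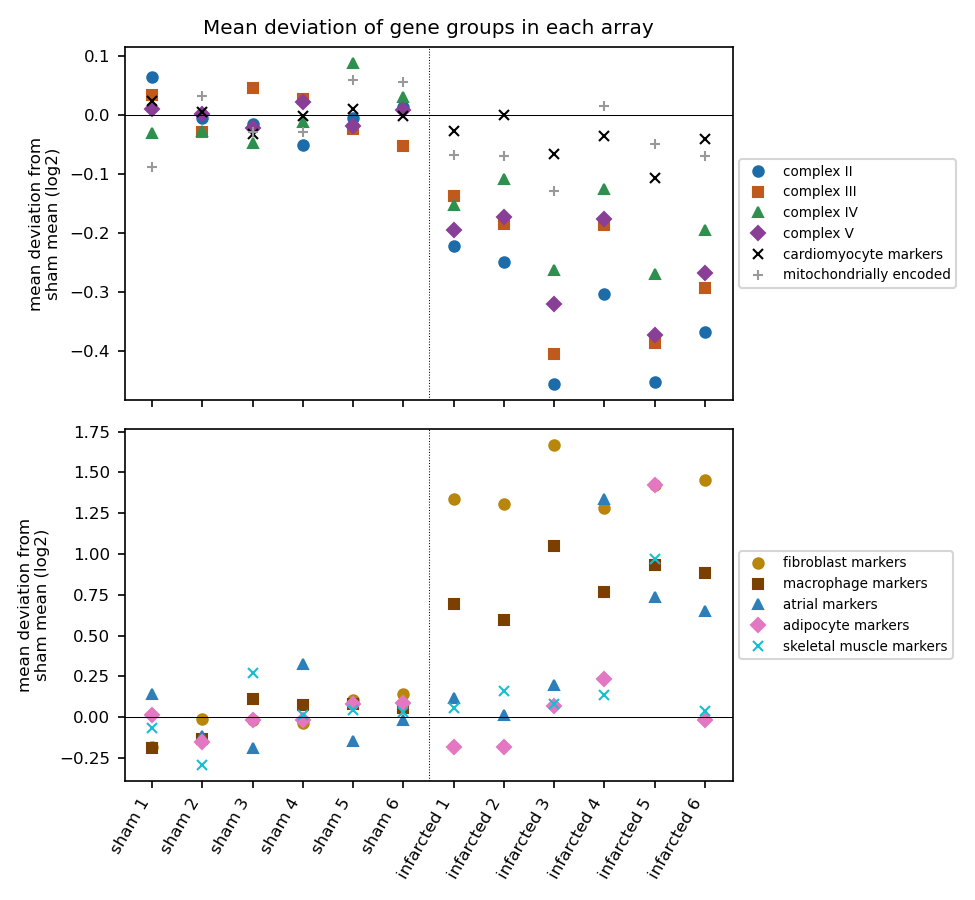
Mean deviation from the sham mean (log2, vertical axes) of gene groups in each of the 12 arrays (horizontal axis). Upper panel, complexes II to V with cardiomyocyte markers and mitochondrially encoded genes. Lower panel, markers of other cell types, with infarcted replicate 3 highest for fibroblast markers and replicate 5 for adipocyte markers.

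Complex II fell as a whole, with all 4 genes lower, a median change of -0.36, and 25 of its 34 probesets called lower (over all probesets 4.6% were called lower and 6.96% higher). Sdha encodes the flavoprotein that binds succinate. Its signal ran from 12.34 to 12.45 in sham arrays (median 12.41) and from 11.79 to 12.05 in infarcted arrays (median 11.98). It fell by 0.45 ± 0.064 (SE), or 26.8%, with 14 of 15 probesets called (adjusted p = 0.000195, limma). Sdhc, a membrane anchor that binds haem and ubiquinone, ran from 12.07 to 12.12 in sham arrays (median 12.09) and from 11.61 to 11.85 in infarcted arrays (median 11.72). The groups were far apart beside a sham SD of 0.017, and it fell by 0.37 ± 0.062 (SE) (adjusted p = 0.000761). Sdhb, the iron-sulfur subunit, ran from 11.53 to 11.79 in sham arrays (median 11.54) and from 11.06 to 11.45 in infarcted arrays (median 11.24) and fell by 0.34 ± 0.082 (SE) (adjusted p = 0.00805). In all 3 genes every infarcted array was below every sham array. Sdhd, the other anchor, ran from 11.55 to 11.66 in sham arrays (median 11.64) and from 11.27 to 11.57 in infarcted arrays (median 11.45). It fell by 0.20 ± 0.068 (SE), with 1 infarcted array inside the sham range (adjusted p = 0.046). Leaving out single arrays removed that call in 10 of 12 refits, with adjusted p reaching 0.0994, and none of its 4 probesets passed alone.

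**Figure D3:**
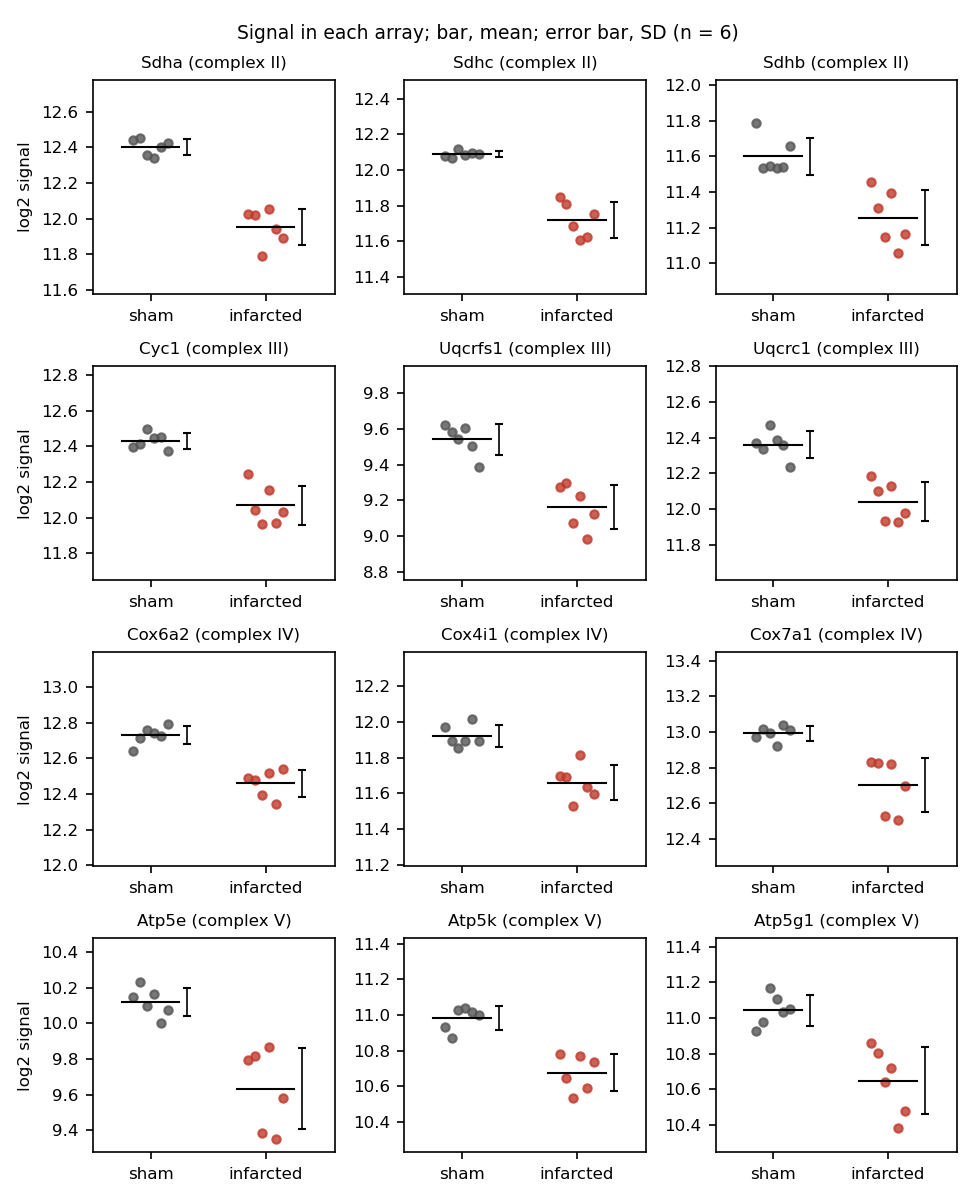
Log2 signal in each array (points), with the group mean (bar) and SD (error bar, n = 6), for the 3 genes with the smallest p of each complex. Every panel spans the same height, and in all 12 genes the infarcted arrays lie below the sham arrays.

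Complex III fell in 6 of 9 genes, with a median of -0.28 and 20 of 55 probesets called lower. Cyc1 encodes cytochrome c1, which passes electrons on to cytochrome c. It ran from 12.37 to 12.50 in sham arrays (median 12.43) and from 11.96 to 12.25 in infarcted arrays (median 12.04) and fell by 0.36 ± 0.066 (SE), a loss of 22.2% (adjusted p = 0.0013). Its 7 probesets changed by -0.36 to -0.13, and 2 of them were called. Uqcrfs1, the Rieske iron-sulfur protein, ran from 9.39 to 9.62 in sham arrays (median 9.56) and from 8.98 to 9.30 in infarcted arrays (median 9.18) and fell by 0.38 ± 0.073 (SE) (adjusted p = 0.00209). The groups were apart in both. The core proteins gave unequal values. Uqcrc1 ran from 12.24 to 12.47 in sham arrays (median 12.37) and from 11.93 to 12.18 in infarcted arrays (median 12.04) and fell by 0.32 ± 0.069 (SE), with groups apart (adjusted p = 0.00448). Uqcrc2, its partner in the core, ran from 12.96 to 13.11 in sham arrays (median 13.06) and from 12.80 to 13.04 in infarcted arrays (median 12.96), with 3 infarcted arrays inside the sham range, and differed by -0.11 ± 0.064 (SE) (adjusted p = 0.278). It was one of the 6 brightest members. With the mean over its 17 probesets in place of the median, Uqcrc2 passed too (-0.16, adjusted p = 0.0244).

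Among the small subunits around the core, Uqcrq (-0.33), Uqcr11 (-0.28) and Uqcr10 (-0.28) fell, with adjusted p between 0.00831 and 0.0118 and groups apart in each. Uqcrh, the hinge protein that helps cytochrome c dock, differed by -0.18 (adjusted p = 0.105). It passed with array medians centred, means over probesets and a variance trend (adjusted p from 0.0352 to 0.04). Uqcrb differed by -0.16 (adjusted p = 0.245, from its single probeset). Cycs encodes cytochrome c itself, which shuttles electrons from complex III to complex IV. Its signal ran from 12.22 to 12.38 in sham arrays (median 12.26) and from 11.97 to 12.12 in infarcted arrays (median 12.07). It fell by 0.22 ± 0.06 (SE), with every infarcted array below every sham array (adjusted p = 0.0164). Set against cardiomyocyte markers, the change of Cycs was -0.18 and did not pass (adjusted p = 0.0777).

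In the main limma fit complex IV had the smallest share of genes called. That rank depends on the setting, since Cox4i2, Cox5b, Cox7b, Cox7c and Cox8b also passed with array medians centred (adjusted p from 0.0302 to 0.0455). Of 14 genes 6 fell, with a median of -0.23, and 11 of 60 probesets were called lower. Cox6a2, the muscle form of a subunit that binds nucleotides, ran from 12.64 to 12.79 in sham arrays (median 12.73) and from 12.35 to 12.54 in infarcted arrays (median 12.48) and fell by 0.27 ± 0.06 (SE) (adjusted p = 0.00575). Cox4i1, the general form of subunit 4, ran from 11.86 to 12.02 in sham arrays (median 11.90) and from 11.53 to 11.81 in infarcted arrays (median 11.66) and fell by 0.26 ± 0.065 (SE), with all 4 probesets called (adjusted p = 0.0106). Both had groups apart. Cox5a, Cox6b1, Cox7a1 and Cox7a2 also fell, by values from 0.19 to 0.31. Cox6b1 (-0.19, adjusted p = 0.0415) did not pass in 9 of 12 refits that each dropped 1 array, where adjusted p reached 0.0848. Of the rest, Cox7b differed by -0.27 (adjusted p = 0.0636) and Cox5b by -0.15 (adjusted p = 0.0978). Cox7b passed with array medians centred, means over probesets, a variance trend, and without infarcted replicate 4, alone or with replicate 5 (adjusted p from 0.0294 to 0.0444). Cox5b passed with array medians centred and with a variance trend (adjusted p = 0.0302 and 0.0153). Cox7c differed by -0.13 (adjusted p = 0.14) and Cox6c by -0.096 (adjusted p = 0.252). Cox6c was the brightest member, with a sham mean of 13.66 and groups apart by a narrow margin (13.64 as the lowest sham value and 13.63 as the highest infarcted value).

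For subunits 4, 6A, 7A and 8 of complex IV, 2 paralogous genes each were compared, with Cox6a2, Cox7a1 and Cox8b as the forms typical of heart and skeletal muscle. Cox8c, a further form of subunit 8 outside the members, was dim (sham mean 5.20) and differed by -0.18 (limma, adjusted p = 0.264). Both forms of subunit 7A fell. Cox7a1 ran from 12.92 to 13.04 in sham arrays (median 13.002) and from 12.51 to 12.83 in infarcted arrays (median 12.76) and fell by 0.29 ± 0.074 (SE) (adjusted p = 0.0125). Cox7a2, the general form, ran from 11.46 to 11.74 in sham arrays (median 11.63) and from 11.07 to 11.48 in infarcted arrays (median 11.36), with 1 infarcted array inside the sham range, and fell by 0.29 ± 0.08 (SE) (adjusted p = 0.0191). The within-array difference between them changed by -0.00022 (95% interval -0.19 to 0.19, n = 6 arrays per group, exact permutation p = 1, also adjusted). Without dim probesets Cox7a2 did not pass (-0.17, adjusted p = 0.0884), nor with the mean over its probesets (-0.16, adjusted p = 0.0808). Without dim probesets the difference between the forms moved to -0.12 (exact permutation, adjusted p = 0.0260).

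Subunit 8 behaved otherwise. Cox8b, the muscle form, ran from 13.05 to 13.13 in sham arrays (median 13.07) and from 12.80 to 13.05 in infarcted arrays (median 12.94). Every infarcted array was below every sham array, and the change of -0.15 ± 0.062 (SE) did not pass (adjusted p = 0.117). It passed with array medians centred (-0.19, adjusted p = 0.0394) and with a variance trend (adjusted p = 0.0269). Cox8a, the general form, ran from 11.69 to 11.86 in sham arrays (median 11.79) and from 11.80 to 11.95 in infarcted arrays (median 11.85), with no infarcted array below the sham mean, and differed by 0.076 ± 0.059 (SE) (adjusted p = 0.416). The within-array difference, Cox8b minus Cox8a, was 1.19 to 1.37 in sham arrays and 0.98 to 1.16 in infarcted arrays. These ranges did not overlap, and the balance shifted away from the muscle form by 0.22 on the log2 scale (95% interval of the change -0.32 to -0.12). The exact permutation test over all ways of choosing 6 of 12 arrays gave p = 0.00216 (two-sided), the smallest it can give, and an adjusted p of 0.013 over the 6 pairs of paralogues compared. With 1 array left out the adjusted p stayed between 0.013 and 0.026. Cox8b is bright and has 2 probesets, and Cox8a has 4, each with a positive change.

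The other pairs did not pass. Cox6a1, the general form of subunit 6A, ran from 8.95 to 9.77 in sham arrays (median 9.25) and from 9.12 to 9.68 in infarcted arrays (median 9.23), with SDs of 0.32 and 0.23, the widest of any member. It differed by 0.025 ± 0.14 (SE) (adjusted p = 0.927), a sign that turned to -0.019 with arrays centred on their medians. Cox6a2 minus Cox6a1 changed by -0.29 (95% interval -0.64 to 0.058, exact permutation, adjusted p = 0.182), and passed with means over probesets (-0.34, adjusted p = 0.0455). Cox4i2, a form of subunit 4 known for its expression in lung and in hypoxia, was dim by comparison and ran from 7.67 to 8.25 in sham arrays (median 7.99) and from 7.51 to 7.95 in infarcted arrays (median 7.69). It differed by -0.29 ± 0.11 (SE) (adjusted p = 0.0695), and passed with centred array medians, quantile normalization, means over probesets and dim probesets left out (adjusted p from 0.0334 to 0.0434). Its difference from Cox4i1 changed by -0.027 (95% interval -0.28 to 0.23, exact permutation, adjusted p = 1).

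**Figure D4:**
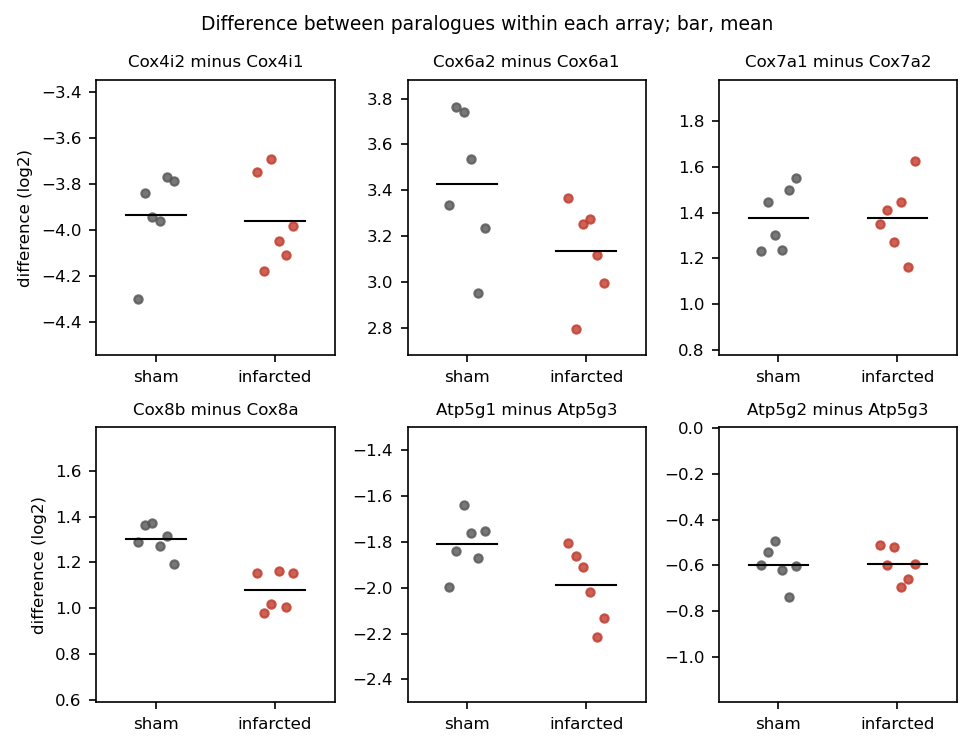
Difference in log2 signal between 2 paralogues of a subunit within each array (points) and group means (bars), for 6 pairs, sham against infarcted. Only Cox8b minus Cox8a has groups that do not overlap, at 1.19 to 1.37 in sham arrays and 0.98 to 1.16 in infarcted arrays.

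Complex V fell in 10 of 14 genes, with a median of -0.23 and 17 of 71 probesets called lower. In the F1 head, which makes ATP, 3 of 5 genes fell. Atp5e, the epsilon subunit of the central stalk, and Sdha had the lowest changes of the 42 members. Leaving out infarcted replicate 5 put Sdha (-0.45) below Atp5e (-0.43). The Atp5e signal ran from 10.00 to 10.23 in sham arrays (median 10.12) and from 9.35 to 9.86 in infarcted arrays (median 9.69). It fell by 0.49 ± 0.097 (SE), or 28.7%, with groups apart and 1 of 3 probesets called (adjusted p = 0.00252). Atp5c1, the gamma subunit that turns inside the head, fell by 0.25 (adjusted p = 0.0102). Atp5a1, the alpha subunit, fell by 0.20 (adjusted p = 0.0377), which did not pass in 9 of 12 such refits, where adjusted p reached 0.0834. The catalytic beta subunit Atp5b differed by -0.12 (adjusted p = 0.211). Atp5d, the delta subunit, ran from 13.52 to 13.56 in sham arrays (median 13.55) and from 13.40 to 13.58 in infarcted arrays (median 13.47), with 1 infarcted array above every sham array, and differed by -0.065 ± 0.056 (SE) (adjusted p = 0.465). Both Atp5b and Atp5d had sham means above 13.5.

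The c subunit, whose ring turns in the membrane as protons pass, is encoded by 3 genes with the same mature protein, and all 3 fell. Atp5g1 ran from 10.93 to 11.17 in sham arrays (median 11.04) and from 10.39 to 10.86 in infarcted arrays (median 10.68) and fell by 0.40 ± 0.087 (SE) (adjusted p = 0.00507). Its 2 probesets changed by -0.69 and -0.10, and 4 further probesets, which also carry another gene's symbol, were not used. Atp5g2 ran from 12.17 to 12.32 in sham arrays (median 12.26) and from 11.94 to 12.16 in infarcted arrays (median 12.04) and fell by 0.21 ± 0.061 (SE) (adjusted p = 0.0233), a call lost without sham replicate 1 or infarcted replicate 5 (adjusted p up to 0.0533). Atp5g3 ran from 12.81 to 12.92 in sham arrays (median 12.84) and from 12.55 to 12.74 in infarcted arrays (median 12.64) and fell by 0.22 ± 0.059 (SE) (adjusted p = 0.0184). The groups were apart in each of the 3. The larger fall of Atp5g1 was not separated from that of Atp5g3, with a change in their difference of -0.18 (95% interval -0.37 to 0.0051, exact permutation, adjusted p = 0.169). For Atp5g2 and Atp5g3 it was 0.0039 (95% interval -0.096 to 0.10, exact permutation, adjusted p = 1).

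In the stalk and membrane part 4 of 6 genes fell. Atp5k, the small membrane subunit e, ran from 10.87 to 11.04 in sham arrays (median 11.01) and from 10.53 to 10.78 in infarcted arrays (median 10.69) and fell by 0.31 ± 0.067 (SE), with groups apart (adjusted p = 0.00468). Atp5o, the OSCP subunit that ties the head to the side stalk, fell by 0.30 (adjusted p = 0.00641), Atp5h, subunit d of that stalk, by 0.26 (adjusted p = 0.00887), and Atp5l, subunit g, by 0.32 (adjusted p = 0.0199). Atp5j2, subunit f, differed by -0.17 (adjusted p = 0.085). It passed with array medians centred, means over probesets and a variance trend (adjusted p from 0.0234 to 0.0314). Atp5j, coupling factor 6, was the dimmest member at a sham mean of 7.82 from its single probeset, and differed by -0.21 (adjusted p = 0.117). It passed without sham replicate 3 (-0.27, adjusted p = 0.0398).

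The 6 members with a sham mean of 13 or more (Uqcrc2, Cox6c, Cox7c, Cox8b, Atp5b and Atp5d) had small negative changes, from -0.15 to -0.065, and did not pass. With other settings 3 of them did. Cox8b and Cox7c passed with array medians centred (adjusted p = 0.0394 and 0.0455) and with a variance trend (0.0269 and 0.0292), and Uqcrc2 passed with means over probesets (0.0244). Of the other 36, 27 fell, with a median of -0.27. The highest value of any probeset in the table was 14.37. The part of the signal's upper limit in these values was not tested. Across the 42 genes the change was weakly related to the sham level (Pearson r = 0.27, Spearman rho = 0.43, a description over genes that share arrays). Of the 15 members that did not pass, 8 had an unadjusted p under 0.05 in limma.

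**Figure D5:**
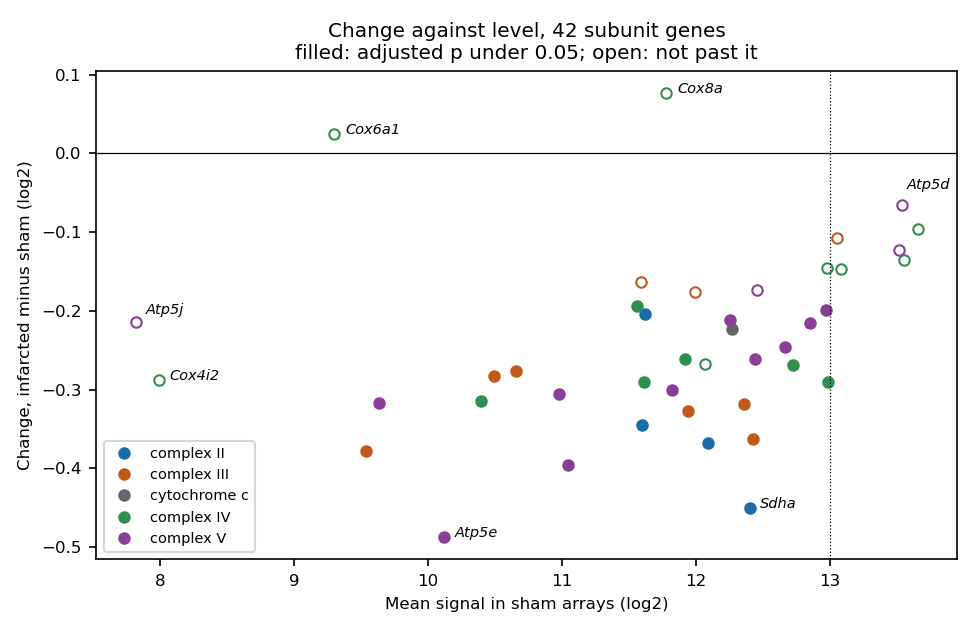
Change (infarcted minus sham, log2, vertical axis) against mean sham signal (log2, horizontal axis) for the 42 genes, filled where adjusted p was under 0.05. The 6 genes right of the dotted line at 13 are all open and lie between -0.15 and -0.065.

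The promoters of the members were read for short motifs of factors known to act on respiratory genes, taking 250 bases before to 50 after the start. RefSeq (GRCm38.p6) gave 35 such windows for 32 members, and its table for the whole genome 32851. Both strands were searched, and the NRF1 letters overlap their own reverse complement, so that 1 site can match on both. The ERR core AAGGTCA lay in 5 of 35 member windows (14.3%) and in 4.72% of all windows. The NRF1 core GCATGCG lay in 9 (25.7%, against 3.58%), and the ETS core CCGGAAG, read by GABP, in 12 (34.3%, against 8.86%). The YY1 core AAGATGG lay in 3 (8.57%, against 6.34%) and the E-box CAGCTG of muscle factors in 2 (5.71%, against 16.3%). Of the windows, 22 belonged to genes that fell and 13 to genes that did not pass. The ERR core lay in 5 of the 22 and 0 of the 13, NRF1 in 7 and 2, ETS in 8 and 4, YY1 in 0 and 3, and the E-box in 0 and 2. A match says only that these letters are present. Windows of Atp5e and Atp5k are shown because they belong to complex V genes with clear falls and hold several motifs, and those of Cox8a and Cox8b because this pair shifted in balance. They read 5′ to 3′ along the gene, with matches in capitals. The window of Atp5e is chr2:174464052-174464351, minus strand, that of Atp5k chr5:108434350-108434649, minus strand, that of Cox8a chr19:7217567-7217866, minus strand, and that of Cox8b chr7:140900397-140900696, minus strand.
Atp5e: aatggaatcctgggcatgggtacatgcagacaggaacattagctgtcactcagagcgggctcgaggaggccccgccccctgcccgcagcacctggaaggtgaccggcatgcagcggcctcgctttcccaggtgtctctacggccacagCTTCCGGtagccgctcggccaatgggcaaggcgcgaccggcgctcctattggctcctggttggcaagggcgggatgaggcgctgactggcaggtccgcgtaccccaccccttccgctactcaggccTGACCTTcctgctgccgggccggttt
Atp5k: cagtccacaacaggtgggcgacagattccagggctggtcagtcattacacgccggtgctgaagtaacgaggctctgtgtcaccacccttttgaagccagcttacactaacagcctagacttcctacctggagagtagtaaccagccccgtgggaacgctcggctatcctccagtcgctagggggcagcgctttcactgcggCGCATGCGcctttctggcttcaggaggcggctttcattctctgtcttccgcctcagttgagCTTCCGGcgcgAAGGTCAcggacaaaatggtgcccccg
Cox8a: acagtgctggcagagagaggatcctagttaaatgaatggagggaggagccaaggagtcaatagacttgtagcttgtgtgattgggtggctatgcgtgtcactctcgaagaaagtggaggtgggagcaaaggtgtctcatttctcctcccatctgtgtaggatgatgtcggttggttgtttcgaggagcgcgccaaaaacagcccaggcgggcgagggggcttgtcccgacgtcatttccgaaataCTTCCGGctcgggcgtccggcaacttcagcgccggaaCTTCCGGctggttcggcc
Cox8b: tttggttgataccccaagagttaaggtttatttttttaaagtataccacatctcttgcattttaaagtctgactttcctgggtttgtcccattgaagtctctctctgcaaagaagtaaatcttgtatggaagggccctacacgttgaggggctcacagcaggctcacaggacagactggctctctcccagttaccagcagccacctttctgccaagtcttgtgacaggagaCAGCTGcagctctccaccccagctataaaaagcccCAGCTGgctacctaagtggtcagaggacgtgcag
Atp5e holds an ETS core before the start and an ERR core after it. Atp5k holds NRF1, ETS and ERR letters. Cox8a holds 2 ETS cores, while Cox8b holds 2 E-boxes and none of the other motifs.

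The wider respiratory programme gave similar values. Of 35 measured complex I genes, 29 fell and none rose, with a median of -0.31, and the smallest p were those of Ndufb3 (-0.47) and Ndufs3 (-0.43). Other subunits and close relatives of complexes II to V fell in 4 of 12 genes, with none higher. Atp5s, a coupling factor of the ATP synthase, fell by 0.45 and Ndufa4, now counted as a subunit of complex IV, by 0.42. Atpif1, the inhibitor of the ATP synthase, differed by 0.10 (adjusted p = 0.227). Genes needed to build complexes II to V fell in 20 of 34 and rose in 1, with a median of -0.28. All 4 factors of complex V fell, among them Tmem70 (-0.42) and Atpaf1 (-0.34), and for complex III Uqcc1 fell by 0.59 and Ttc19 by 0.33. For complex II Sdhaf4 fell by 0.34 and Sdhaf1 by 0.25. Among 20 complex IV factors 10 fell, among them Lrpprc (-0.48), which stabilises mitochondrial mRNAs, and the copper chaperone Cox17 (-0.47), while Cox19, another copper protein, rose by 0.41 (adjusted p = 0.0153). Without infarcted replicate 6 the count of complex IV factors that fell was 6. Of 18 genes of the outer membrane, import and mitochondrial shape, 11 fell, with a median of -0.23, for example the import chaperone Hspa9 (-0.29) and the fusion protein Opa1 (-0.37). That count was 6 without infarcted replicate 5, 7 without sham replicate 1 or infarcted replicate 3 or 6, and 8 against cardiomyocyte markers.

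The mitochondrially encoded genes that were measured did not pass. Of 13 such genes 7 were measured, and 0 were called in limma. Only mt-Nd6 had an unadjusted p under 0.05 in limma (-0.28, adjusted p = 0.117), and it was called without sham replicate 1. The sham mean of mt-Nd6 was 6.04, and those of the other genes measured were 13.13 or more. Subunits of complex I are encoded by mt-Nd1, mt-Nd2, mt-Nd4l and mt-Nd6, and none of the 7 encodes a complex III subunit. The core subunits mt-Co1 and mt-Co3 of complex IV differed by -0.023 and -0.037, and mt-Atp6 of complex V by -0.049. The sham means of mt-Co1 and mt-Co3, 13.78 and 13.69, lie above that of every nuclear member (at most 13.66, Cox6c). That of mt-Atp6, 13.13, lies in the range of the 6 brightest nuclear members. None of those 6 passed in the main limma fit. The part of the signal's upper limit in the mitochondrially encoded values was not tested.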

How the data were processed

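The authors deposited 1 table of log2 probeset signals from 12 one-colour arrays. Per the submitters' processing notes it was made with Affymetrix Power Tools. The background correction, normalization, probeset summary, software version and genome build were each not given in the sources used here. Values from 1.52 to 14.37 were read as log2. Array medians were 7.00 to 7.03 in sham and 7.04 to 7.06 in infarcted arrays, pairwise correlations 0.956 to 0.979, and no 2 arrays were identical. Of 241576 probesets, 212097 had 1 gene symbol, 4475 several and 25004 none. Symbols were updated through RefSeq synonyms, which named 2 members (Uqcr10 and Uqcr11). A gene's value was the median over its probesets, with no filter on dim signal.

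The 2 conditions were tested in limma (version 3.58.1, R version 4.3.3), once on genes and once on probesets (linear model with eBayes, two-sided, Benjamini-Hochberg over all, threshold 0.05), and every adjusted p of a gene comes from it. Changes are infarcted minus sham. Whether the values still include background signal is not known, and if they do, changes of dim genes are understated. Paralogue pairs were compared by exact permutation of within-array differences over all splits of the 12 arrays, adjusted over 6 pairs, with 95% intervals from the spread between arrays. Scripts were tested on simulated data. Python 3.11.15 and matplotlib 3.10.9 were used for tables and figures.

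Groups and replicate numbers came from sample titles. The labels give no batch and no pairing of hearts across conditions. The members and all gene lists were chosen with earlier results of these data known. Genes were named by rule: per complex the 3 smallest p and the largest p, Cycs, all paralogue pairs and any member with a higher mean in full, the other members by change, and up to 2 genes per companion list and direction. Alternatives were array centring, quantile normalization, means over probesets, leaving out dim probesets (mean under the 30th percentile, 5.58), a replicate block, centring on cardiomyocyte markers, a variance trend, and leaving out arrays. mt-Nd6, mt-Nd1, mt-Nd2, mt-Nd4l, Atpif1, mt-Co1, mt-Co3, mt-Atp6, Adipoq, Ucp1, Cidea, Myh6, Cdh5, Pecam1, Cox8c, Atp2a2, Tnni3, Ryr2, Myl3 and Des were named after their values were seen.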

Additional observations from a re-analysis of the deposited data

Results flagged for a closer look

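Among 106 sets of 6 values examined (each member, each paralogue difference and the mean deviations of all members and of each complex, per group), 4 had an array set apart from the other 5 by more than the 95% critical value of Dixon's ratio. Chance gives about 5% of sets. Sham replicate 3 had the highest Cycs signal at 12.38, with the next at 12.26. Sham replicate 2 had the highest Cox6c signal at 13.70, with the next at 13.66. Sham replicate 5 had the highest Cox7b signal at 12.38, with the next at 12.05. Sham replicate 1 had the lowest difference of Cox4i2 minus Cox4i1 at -4.30, with the next at -3.96. Without sham replicate 1 Cox4i2 passed in limma (-0.35, adjusted p = 0.0256), and it also passed without infarcted replicate 1 (-0.34, adjusted p = 0.0384). All 4 sets are of sham arrays.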

How the results depend on the processing

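The number of members lower was 21 to 34 under every alternative (23 to 28 with 1 array left out), against 27, and none was higher in any. The 27 lost 3 calls with the replicate block (24) and 6 with arrays centred on cardiomyocyte markers. The calls for Cycs, Atp5g3, Atp5g2, Atp5a1, Cox6b1 and Sdhd ended there, and those for Sdhd, Cox6b1, Atp5a1, Atp5g2, Cox5a and Atp5l ended with infarcted replicates 4 and 5 both left out. Without infarcted replicate 5 the count was 23. Over all genes the 2074 called lower became 1856 with the replicate block and 1664 without infarcted replicate 5. Single probesets were less stable. The 74 called lower became 32 with the replicate block, 137 with a variance trend, 25 without infarcted replicates 4 and 5, and 43 to 69 with 1 array left out, being 45, 44, 45, 43 and 43 without sham replicates 1 and 4 and infarcted replicates 3, 5 and 6. The count over all probesets moved too. Its 9755 called lower became 6533, 12625 and 5750 in the first 3 of these settings, and 6997 to 9555 with 1 array left out.

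Among paralogues, Cox8b against Cox8a kept its direction and passed in every alternative run that could reach the threshold (-0.24 to -0.20 with 1 array left out). With the replicate block the change was -0.22 and the exact sign-flip test gave an adjusted p of 0.188, the smallest that 6 arrays per group allow for 1 pair, so that test says nothing either way. Cox6a2 against Cox6a1 passed with means over probesets (-0.34) and Cox7a1 against Cox7a2 without dim probesets (-0.12). Differences near 0 changed sign. Cox4i2 against Cox4i1 was 0.10 with means over probesets, 0.033 without infarcted replicates 4 and 5, and -0.10 to 0.017 with 1 array left out. Cox7a1 against Cox7a2 was 0.015 with quantile normalization, 0.037 without those replicates, and -0.049 to 0.043 with 1 array left out. Atp5g2 against Atp5g3 was -0.045 with means over probesets and -0.024 to 0.025 with 1 array left out. Cox6a1 was -0.019 with arrays centred on their medians and -0.046 to 0.12 with 1 array left out. The cause was not tested.

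The values gave little sign of pairing by replicate number, a check that cannot exclude a weak factor shared by same-numbered arrays. Same-numbered arrays correlated between -0.05 and 0.10 in their deviations from group means, and 2 of 6 sham arrays matched their own number best. The block took the calls of Sdhd, Cox6b1 and Atp5a1. Centring on array medians moved the calls over all genes from 2074 lower and 2050 higher to 2956 and 1748, and the members from 27 to 34 lower.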
